A study of Mus musculus with 12 samples.

Results

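The regions described here are the places where BRD3 was called after RANKL but not in untreated cells, and where a call was also made when the bromodomain inhibitor I-BET was added together with RANKL. They were chosen by overlap of at least 1 bp between deposited BRD3 region lists: a region of the RANKL list had to overlap no region of the untreated list and at least 1 region of the RANKL plus I-BET list. Of the 3840 regions of the BRD3 RANKL list, 341 met both conditions (8.88%), out of 16188 regions in the 8 lists of both antibodies. The untreated list thus left 1074 RANKL regions as gained, and 341 of these were kept with I-BET (31.8%, exact 95% interval 29.0% to 34.6%). Because these 3 BRD3 lists chose the regions, their widths and scores are given below as description only. The BRD3 list of cells given I-BET alone, the 4 BRD2 lists, the position relative to genes and the promoter sequence took no part in the choice.

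The data are chromatin immunoprecipitation sequencing (ChIP-seq) of BRD2 and BRD3 in RAW264.7, a single mouse monocyte and macrophage line that can be driven towards osteoclasts. Cells were untreated, or were kept for 4 h with RANKL at 50 ng/ml, with I-BET at 500 nM, or with RANKL and I-BET at the same doses. No genetic change is named for any group, and no time in culture is given for the untreated cells. Each antibody and treatment has 1 library and 1 region list, so no difference has a replicate check, no test between treatments is possible, and the intervals cover counting error only. The tissue label of the samples is bone marrow, while the cell line label names a cultured line. The lists hold no reads, and the depth of every library is unknown.

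BRD2 and BRD3 belong to the BET family, whose paired bromodomains bind acetylated lysines on histones and which help RNA polymerase to leave promoters and elongate. I-BET, a small molecule, fills the pocket in which the acetyl-lysine sits. RANKL drives monocytes and macrophages to become osteoclasts, through the receptor RANK, NF-κB and AP-1 factors. A BET protein called at a place in spite of such an inhibitor has been counted there by the peak caller, and the call says nothing of how much protein remained.

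The promoters of 9 genes at these regions are shown because they span the groups described below: a MYC network gene, a macrophage gene, a chaperone, a nucleolar protein, a respiratory chain subunit, a proton pump subunit, a gene with BRD2 calls too, and the genes with the highest RANKL plus I-BET score and the third highest RANKL score. They were chosen after their values were seen. Each line gives the 200 bases upstream of a RefSeq start site (build GRCm38.p6), read 5′ to 3′ on the strand of the gene, and that start site lies inside the BRD3 RANKL region. Capitals mark matches on either strand to the ETS motif (CCGGAAG), the NRF1 motif (GCGCATGC), the E-box (CACGTG), the GC box (GGGCGG), the CCAAT box and the C/EBP motif (TTGCNNAA).
Mybbp1a: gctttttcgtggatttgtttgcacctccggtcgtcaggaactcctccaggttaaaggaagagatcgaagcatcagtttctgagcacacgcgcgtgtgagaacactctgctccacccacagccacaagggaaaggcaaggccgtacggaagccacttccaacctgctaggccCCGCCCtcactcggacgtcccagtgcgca
Lcp1: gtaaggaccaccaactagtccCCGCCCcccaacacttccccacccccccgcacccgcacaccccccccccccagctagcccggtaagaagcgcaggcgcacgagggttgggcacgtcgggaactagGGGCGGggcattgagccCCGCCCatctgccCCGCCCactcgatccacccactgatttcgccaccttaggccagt
Chordc1: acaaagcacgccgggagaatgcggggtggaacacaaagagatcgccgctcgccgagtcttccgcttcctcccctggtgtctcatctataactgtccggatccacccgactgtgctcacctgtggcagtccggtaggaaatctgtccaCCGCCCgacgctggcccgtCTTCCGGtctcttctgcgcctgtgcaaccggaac
Mphosph10: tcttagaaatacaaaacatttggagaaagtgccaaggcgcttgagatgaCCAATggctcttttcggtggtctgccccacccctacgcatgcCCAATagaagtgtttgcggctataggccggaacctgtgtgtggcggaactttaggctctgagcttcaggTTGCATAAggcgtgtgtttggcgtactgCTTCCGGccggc
Ndufb7: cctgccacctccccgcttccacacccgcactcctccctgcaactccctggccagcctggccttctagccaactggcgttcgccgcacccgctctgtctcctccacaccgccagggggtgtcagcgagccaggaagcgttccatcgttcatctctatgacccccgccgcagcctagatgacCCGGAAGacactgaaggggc
Atp6v1f: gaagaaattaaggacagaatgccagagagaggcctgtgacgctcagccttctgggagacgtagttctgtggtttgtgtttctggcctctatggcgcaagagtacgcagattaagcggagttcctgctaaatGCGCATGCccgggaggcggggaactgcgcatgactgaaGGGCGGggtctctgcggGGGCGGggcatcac
Btbd8: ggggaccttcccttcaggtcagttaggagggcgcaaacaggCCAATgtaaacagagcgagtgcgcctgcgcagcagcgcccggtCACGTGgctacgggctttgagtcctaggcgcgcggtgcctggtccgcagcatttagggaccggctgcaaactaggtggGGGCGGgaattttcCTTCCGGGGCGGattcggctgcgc
Snap23: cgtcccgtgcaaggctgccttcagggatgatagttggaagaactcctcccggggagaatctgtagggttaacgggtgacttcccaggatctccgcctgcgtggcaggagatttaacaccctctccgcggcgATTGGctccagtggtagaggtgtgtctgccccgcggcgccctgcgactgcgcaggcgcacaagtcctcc
Rfwd3: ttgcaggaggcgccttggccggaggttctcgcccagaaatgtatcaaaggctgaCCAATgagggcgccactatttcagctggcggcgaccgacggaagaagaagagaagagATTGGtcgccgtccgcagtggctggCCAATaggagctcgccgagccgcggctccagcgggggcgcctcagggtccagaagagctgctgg

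Mybbp1a, which encodes a nucleolar MYB-binding protein, has the window chr11:72441127-72441326 on the plus strand, with 1 GC box. Lcp1, the gene of the leukocyte actin-bundling protein L-plastin, has chr14:75130923-75131122 on the plus strand, with 4 GC boxes on both strands. Chordc1, an HSP90 co-chaperone gene, has chr9:18292067-18292266 on the plus strand, and Mphosph10, whose protein takes part in early ribosomal RNA processing, has chr7:64392237-64392436 on the minus strand; both hold an ETS match close to the start site. Ndufb7, a complex I subunit gene, has chr8:83566558-83566757 on the plus strand and an ETS match. Atp6v1f, a subunit of the proton pump that acidifies lysosomes and the osteoclast's resorption space, has chr6:29467583-29467782 on the plus strand, with an NRF1 match and GC boxes. Btbd8 has chr5:107437730-107437929 on the plus strand and holds an E-box, a CCAAT box and an ETS match that shares its last base with a GC box. Snap23, the gene of a SNARE protein of vesicle fusion, has chr2:120567471-120567670 on the plus strand, and Rfwd3, an E3 ubiquitin ligase gene of DNA repair, has chr8:111300223-111300422 on the minus strand with 3 CCAAT boxes. A match is a run of letters and not a measured binding site.

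Most of these regions lay at gene starts. Their midpoint was within 1 kb of an end of a protein-coding gene for 215 of 341 regions (63.0%, 57.7% to 68.2%), elsewhere in a gene for 63 (18.5%) and between genes for 63 (18.5%). Among the 733 gained regions that were not kept, the share at gene ends was 35.3% (31.9% to 38.9%), and 36.8% lay between genes. Regions that untreated cells already had and that were kept with I-BET were at gene ends in 76.0% of 2133 cases (74.2% to 77.8%). The kept gained regions therefore stood between these sets, with intervals that did not overlap either, and close to the 61.5% of all BRD3 RANKL regions. Measured from RefSeq start sites, which the table used here lists for every chromosome except 18, 204 of 333 regions had their midpoint within 1 kb of a start (61.3%, 55.8% to 66.5%), against 34.6% of gained regions not kept and 73.9% of kept regions shared with untreated cells. Paired start sites that point away from each other lay at 45 of 333 (13.5%, 10.03% to 17.7%), against 6.63% (4.91% to 8.72%) and 15.2%, and near the 12.2% of all BRD3 RANKL regions. A long non-coding RNA gene end was within reach of 41 regions (12.02%), much as for all RANKL regions (11.9%).

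BRD3 was also called at many of these regions after I-BET alone, in a list that the choice did not use. An I-BET region overlapped 189 of the 341 (55.4%, 50.0% to 60.8%), close to the 52.5% of all BRD3 RANKL regions. Of the gained regions not kept, 28 of 733 had one (3.82%, 2.55% to 5.47%), and of the kept regions shared with untreated cells 1727 of 2133 (81.0%, 79.2% to 82.6%). So for 189 regions BRD3 was called in all 3 treated groups and not in untreated cells, and for 152 regions BRD3 was called in both RANKL groups only. Read from the other side, 485 of 2842 regions of the RANKL plus I-BET list were absent from untreated cells, of which 341 had a RANKL region (70.3%, 66.0% to 74.3%) and 240 an I-BET region (49.5%, 44.9% to 54.0%). Every one of the 341 overlapped a separate RANKL plus I-BET region, and none of those overlapped an untreated region.

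**Figure D1:**
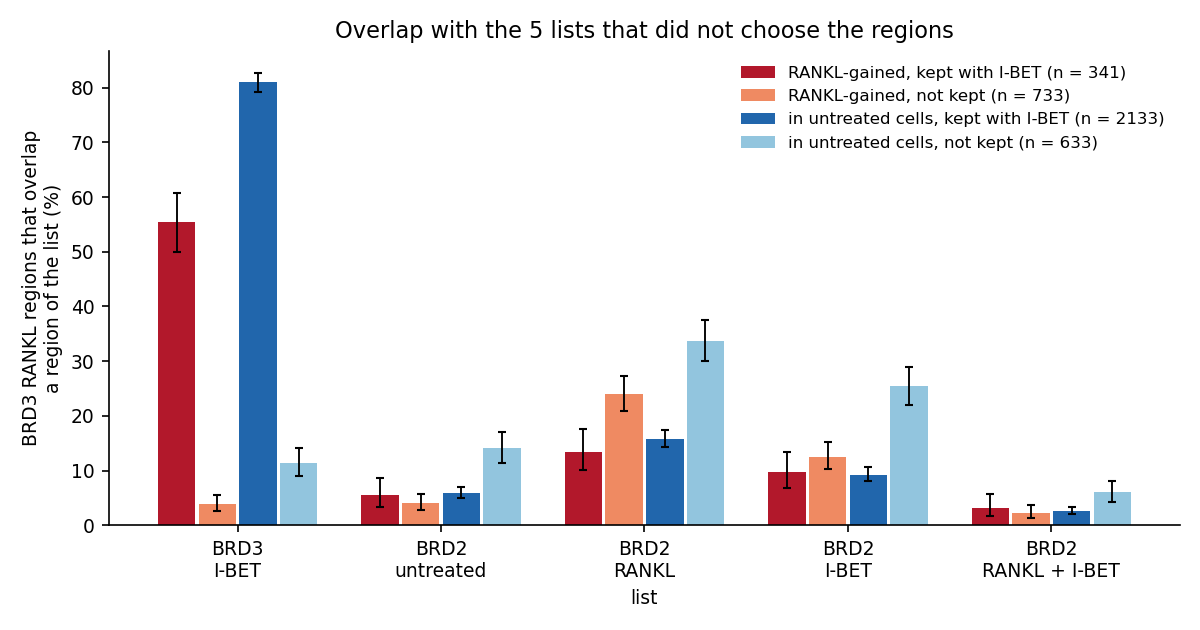
Percentage of BRD3 RANKL regions that overlap a region of the list on the x axis, for the 4 sets of regions named in the key; error bars are exact 95% binomial intervals, which cover counting error only. Gained regions kept with I-BET overlap the BRD3 I-BET list in 55.4% of cases, between gained regions not kept (3.82%) and kept regions already present in untreated cells (81.0%). Their overlap with BRD2 under RANKL (13.5%) is below that of gained regions not kept (24.0%) and near that of kept regions already present in untreated cells (15.8%).

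BRD2, the other BET protein measured, was called at few of them. Under RANKL a BRD2 region overlapped 46 of 341 (13.5%, 10.05% to 17.6%), below the 20.1% of all BRD3 RANKL regions and the 24.0% (21.0% to 27.3%) of gained regions not kept. In untreated cells BRD2 was called at 19 (5.57%, against 6.9% of all BRD3 RANKL regions), with I-BET at 33 (9.68%, against 12.6%) and with both agents at 11 (3.23%, against 3.18%). At 34 regions (9.97%, 7.004% to 13.7%) BRD2 was called under RANKL and not in untreated cells, against 15.7% of all BRD3 RANKL regions and 21.3% (18.4% to 24.4%) of gained regions not kept. At least 1 of the 4 BRD2 lists reached 71 regions (20.8%, 16.6% to 25.5%), against 27.4% of all BRD3 RANKL regions and 30.3% of gained regions not kept. The most frequent pattern was a call of BRD3 with I-BET alone and none of BRD2, at 145 regions. A further 125 had no call in any of the 5 lists outside the choice. The BRD2 lists hold 578, 1716, 1067 and 245 regions for untreated, RANKL, I-BET and both agents, so their overlaps cannot be read against each other.

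Just 4 regions were called in all 4 BRD2 lists. They lay at Eif4e, the gene of the cap-binding translation factor; at Hspa9, which encodes the mitochondrial HSP70; at Rabggtb, a subunit gene of the enzyme that prenylates Rab proteins; and over AY036118 and Rn18s-rs5 on chromosome 17. At Eif4e (chr3:138526528-138527597, inside the gene near one end) the BRD3 region was 1070 bp with RANKL, 736 bp with both agents and 896 bp with I-BET. The BRD2 regions there were 929 bp in untreated cells, 1106 bp with RANKL, 831 bp with I-BET and 886 bp with both. The Eif4e place thus had a BRD2 call before treatment and BRD3 calls in the treated groups only. Its BRD3 RANKL score was 36.3, near the lowest of that list (34.3), so the missing untreated call does not show that BRD3 was absent. Mybbp1a had BRD2 in untreated cells, with RANKL and with I-BET (904 bp, 1773 bp and 701 bp) and none with both, while its BRD3 regions were 665 bp with RANKL, 513 bp with both agents and 621 bp with I-BET. Btbd8 had BRD2 in both RANKL groups, at 831 bp with RANKL and 629 bp with both agents, beside BRD3 regions of 606 bp and 684 bp.

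The regions called by BRD3 with I-BET alone differed in place from those that were not. At gene ends lay 138 of the 189 regions with an I-BET call (73.0%, 66.1% to 79.2%) and 77 of the 152 without one (50.7%, 42.4% to 58.9%). Between genes lay 12.7% (8.31% to 18.3%) and 25.7% (18.9% to 33.4%). The RANKL regions were wider where BRD3 was also called with I-BET, with a median of 642 bp (quartiles 539 and 780) against 503 bp (438.5 and 640.5). BRD2 under RANKL was called at 14.8% (10.1% to 20.7%) and 11.8% (7.17% to 18.1%), intervals that overlap.

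**Figure D2:**
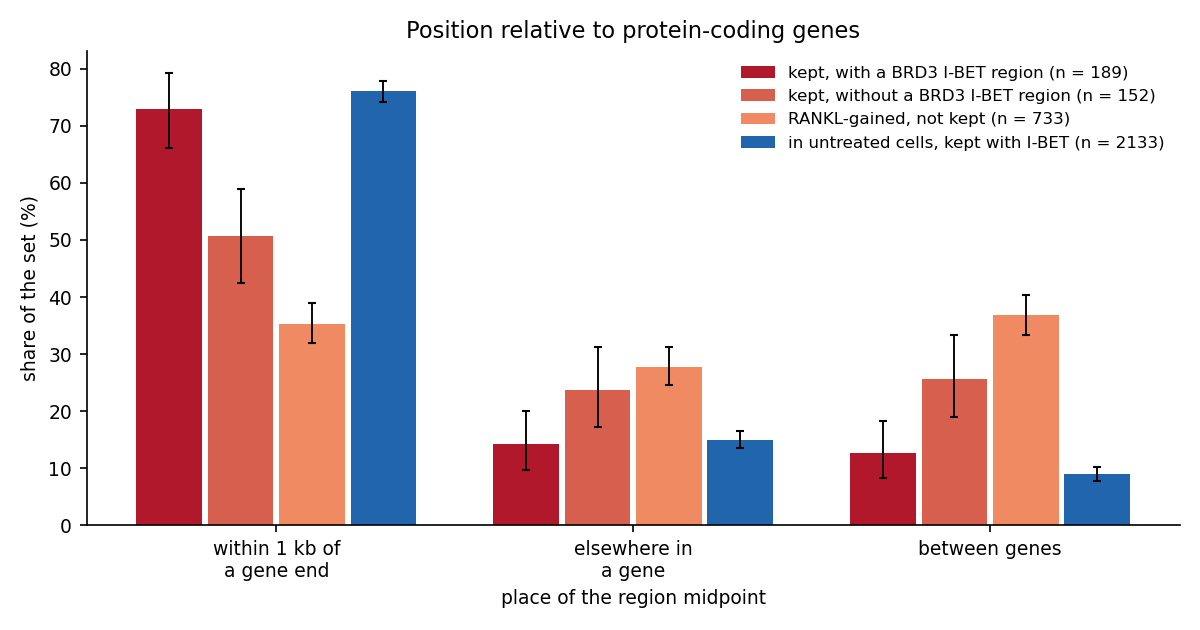
Percentage of each set of BRD3 RANKL regions by the place of the midpoint relative to protein-coding genes, with exact 95% binomial intervals for counting error. Gained and kept regions with an I-BET call stand at gene ends in 73.0% of cases, those without in 50.7%, and gained regions not kept in 35.3%.

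The 341 regions were narrow. Under RANKL their width ran from 318 to 6054 bp, with a median of 567 bp (quartiles 482 and 743), against 679 bp for all BRD3 RANKL regions and 764 bp for gained regions not kept. Only 43 (12.6%) exceeded 1 kb, against 27.0% of all BRD3 RANKL regions and 38.3% of gained regions not kept. Kept regions shared with untreated cells had a median of 660 bp, and 18.8% of them exceeded 1 kb. By width quartile of the whole RANKL list, 133, 89, 82 and 37 of the regions fell in the narrowest to the widest quartile. With I-BET added the median was 526 bp, and the ratio of the width with both agents to that with RANKL had a median of 0.955 (quartiles 0.820 and 1.05). The region with both agents was narrower at 202 of 341 places (59.2%), against 67.7% of the kept regions shared with untreated cells. Widths in the 2 lists followed each other across the regions (Spearman 0.63, n = 341, regions of 1 library per list). These widths come from lists that chose the regions, and no test was made on them.

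The authors' score, a number without a stated unit that ranks regions within a list, was low for these regions under RANKL and ordinary with both agents. The median was 70.0 under RANKL against 114 for all BRD3 RANKL regions, and 150 of the 341 fell in the lowest score quartile of that list against 43 in the highest. In the RANKL plus I-BET list their median was 138, against 139 for that whole list. Scores of the same region in the 2 lists hardly followed each other (Spearman 0.06, n = 341), less than for the kept regions shared with untreated cells (0.24, n = 2133). A cut by score also removes untreated regions, so a RANKL region with a low-scoring untreated call then counts as gained. With the top 50% of each list by score, 277 regions met the same conditions, 56 of them among the 341. With every BRD3 list cut to its 2232 highest scores, 405 did, 106 of them among the 341. In both cases the rest overlapped an untreated region that the cut had removed.

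**Figure D3:**
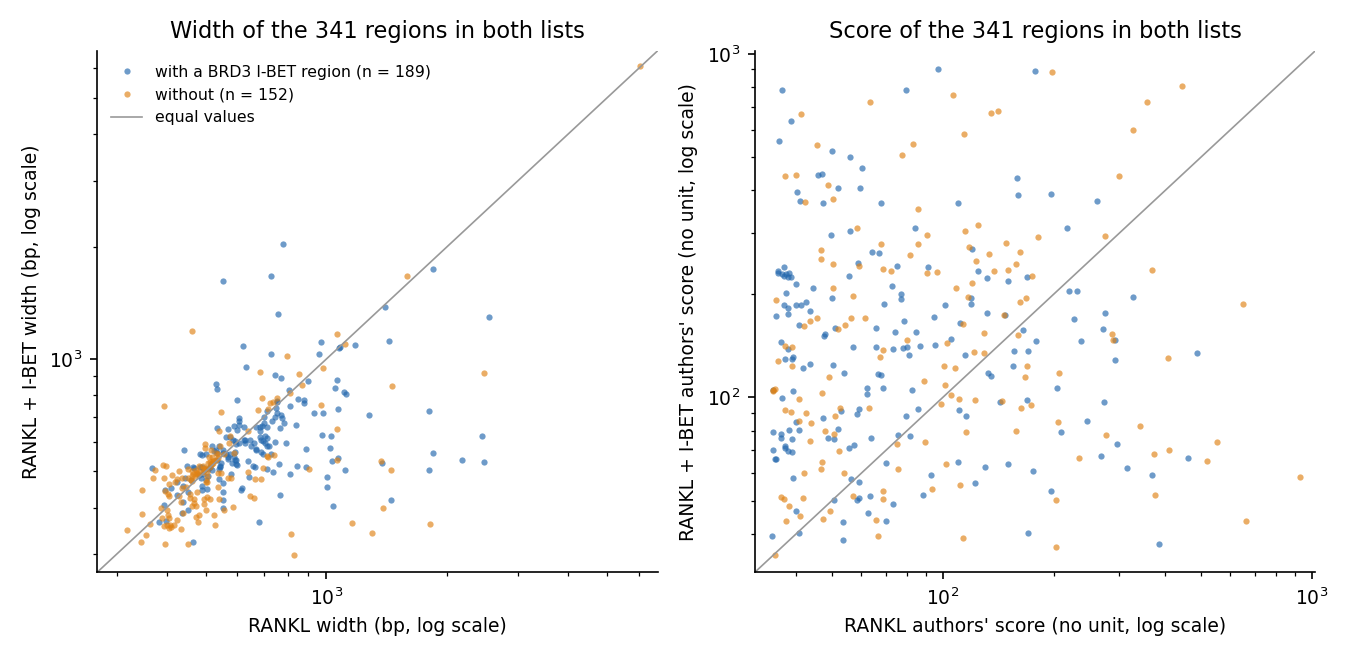
Each point is 1 of the 341 BRD3 regions, with its width in bp (left) or the authors' score (right) under RANKL on the x axis and with RANKL plus I-BET on the y axis, on log scales; colours give whether BRD3 was also called with I-BET alone, and the line marks equal values. Widths lie along the line with a tail of regions that are narrower with both agents, while scores show almost no common order (Spearman 0.63 and 0.06).

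The 10 highest RANKL scores included 4 on chromosome 8, and 8 of the 10 had no BRD3 I-BET region. Of all 341 regions, 18 lay on chromosome 8 and 152 had no BRD3 I-BET region. The 10 were picked for their score, and neither of their counts was tested. The first was at an end of Cdyl2, a chromodomain protein gene (chr8:116732534-116733286), with a score of 928, and it measured 753 bp with RANKL and 785 bp with both agents. The next stood at Cenpn, a centromere protein gene, and Cmc2, a cytochrome c oxidase assembly gene (score 663, 478 bp and 366 bp). Rfwd3 followed (chr8:111300047-111300393, score 649, 347 bp and 445 bp). In the RANKL plus I-BET list the 5 highest of them scored between 43.7 and 186, against a median of 139 for that list. Kdm6b, whose product removes methyl groups from lysine 27 of histone H3, had the region inside the gene (chr11:69401285-69401720, score 553, 436 bp with RANKL and 451 bp with both agents). Nrros, a regulator of reactive oxygen species in myeloid cells, also had it inside the gene (score 461, 514 bp and 513 bp), with an I-BET region of 523 bp. Lca5l scored 519 (451 bp and 320 bp), and the RNA acetyltransferase gene Nat10 scored 411 (538 bp and 496 bp). At Ccdc91 (score 488, 1035 bp and 533 bp) BRD3 was called with I-BET, and BRD2 in every group but that with both agents. A region over the non-coding gene Gm39484 (score 444) had 463 bp with RANKL and 1186 bp with both agents. It scored 807 in the RANKL plus I-BET list, where Nrros scored 66.7 and Nat10 70.3. AI429214 closed the 10 with a RANKL score of 407 (695 bp and 509 bp). After these, the highest scores without an I-BET call were 375, at 32249 bp from Epm2a on chromosome 10, and 374 at Nipsnap3b.

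Of the 10 widest RANKL regions, 9 were narrower with both agents and 7 had less than 50% of their RANKL width. Over all 341 regions 59.2% were narrower. Because the 10 were picked for their RANKL width, the choice itself favours narrower partners, and the change was not tested. The widest, 6054 bp with RANKL and 6077 bp with both agents (chr17:39842886-39848939), covers AY036118 and Rn18s-rs5, the latter named as a sequence related to 18S ribosomal RNA, which exists in many copies, so that its reads cannot be assigned to 1 copy. It had no BRD3 call in untreated cells or with I-BET, and BRD2 regions of 5464 bp, 5649 bp and 5934 bp in untreated, RANKL and I-BET cells. Spop, an adaptor gene of a ubiquitin ligase, had 2543 bp with RANKL, 1295 bp with both agents and 1222 bp with I-BET. Dhx9, an RNA helicase gene, had 2472 bp, 531 bp and 624 bp, and BRD2 was called there with RANKL. Ndufs8, a complex I gene that shares its region with Aldh3b1, had 2170 bp, 535 bp and 627 bp, and the kinase gene Wnk1 had 1847 bp, 559 bp and 544 bp. The region inside the overlapping genes Cmss1 and Filip1l measured 2465 bp with RANKL and 915 bp with both agents, one over the non-coding Gm14321 on chromosome 2 had 2442 bp and 620 bp, and that at Saysd1 had 1805 bp and 726 bp. Besides the ribosomal RNA sequence and Spop, Jund alone among the 10 had more than 50% of its RANKL width with both agents (1840 bp with RANKL, 1745 bp with both agents, 633 bp with I-BET).

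One wide region lay between Ctsk and Ctss, the genes of the lysosomal proteases cathepsin K, which osteoclasts use to degrade bone collagen, and cathepsin S. It measured 1811 bp with RANKL (chr3:95517623-95519433), 8236 bp from Ctsk and 7353 bp from Ctss, and 362 bp with both agents. BRD3 was not called there with I-BET, and a BRD2 region of 3041 bp overlapped it by 595 bp under RANKL. It was also the region nearest to an untreated BRD3 region, which lay 1159 bp away and was 1160 bp wide. The next nearest were 1997 bp (Mrpl36), 2262 bp (Hddc3), 2738 bp (Snap23) and 3145 bp (inside Tex14) away. Just outside the rule, the smallest overlaps of a RANKL region with an untreated one were 290 bp (Syp) to 321 bp (Zfp27). The smallest overlaps that admitted a region through the RANKL plus I-BET list were 237 bp on chromosome 4, 298 bp at Arid4b and Ggps1, 316 bp on chromosome 12, and 320 bp at both Lca5l and Mrps14, and the nearest RANKL plus I-BET region of a gained region not kept was 1398 to 1783 bp away for the 5 closest. Thus none of the 341 lay within 1 kb of an untreated region, and no gained region that was not kept lay within 1 kb of a RANKL plus I-BET region.

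The genes at these regions came from 21 of 29 gene lists, and over the lists together their share was near that of all bound genes. A coding gene was counted when a region overlapped the window within 1 kb of either end, which holds for 3004 of 21887 genes in the whole RANKL list (13.7%) and, for the regions described here, for 265 of those 3004 (8.82%). At 122 regions there was no such gene, at 173 there was 1 and at 46 there were 2. The rule bars an untreated BRD3 region at the same place, so another one was possible only close by or at the other end. It was called at 4 of the 265 genes, a count that the choice itself kept low. BRD3 was called at 64.2% of the 265 genes with I-BET and BRD2 at 19.6% under RANKL, against 64.4% and 19.8% of all 3004. The genes in 29 lists numbered 1900, of which 561 were bound under RANKL and 51 had one of these regions (9.09%), near the 8.82% of all bound genes.

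Of the lists tied to the treatment and cell type, none of 5 bound osteoclast genes, none of 8 bound RANK and NF-κB genes and none of 3 bound inflammatory genes had such a region, where the 8.82% of all bound genes would come to less than 1 gene in each list. Outside these lists, and chosen after their values were seen, Btrc and Fbxw11, which encode ubiquitin ligase subunits that recognise the NF-κB inhibitor IκB, had one at an end (501 bp and 744 bp with RANKL, 474 bp and 701 bp with both agents), as did Myd88, an adaptor gene of Toll-like receptors that shares its region with Acaa1a (958 bp and 1030 bp). These genes were picked singly, without a count of like genes beside them, and show no link to a pathway. The RANKL score of Btrc was low (43.7). Of 17 bound macrophage genes 2 had one of these regions, Cebpb and Lcp1. A BRD3 RANKL region was called at 17 of 40 macrophage genes, against 13.7% of all coding genes, so that list carried calls at genes of the labelled cell type. None of the 8 osteoblast or 10 lymphocyte marker genes had one. At 13.7%, lists this short would hold few calls, so their absence does not tell cell types apart. Cebpb, the gene of a transcription factor of macrophages, had 1453 bp with RANKL (chr2:167689126-167690578, over most of the gene at 167688915 to 167690432 and its higher-coordinate end) and 848 bp with both agents. Lcp1 had 518 bp and 545 bp (chr14:75130751-75131268), at its start and beside Lrrc63. Neither had a BRD3 call with I-BET or any BRD2 call. The RANKL scores of Cebpb and Lcp1 were low, 41.0 and 35.3, where the lowest of that list was 34.3. Jund, an AP-1 subunit gene, was the 1 immediate-early gene of 4 bound, and Ifnar1, a chain of the type I interferon receptor, the 1 interferon gene of 2. At Ifnar1 (chr16:91484697-91485318) the widths were 622 bp with RANKL, 607 bp with both agents and 661 bp with I-BET, and the RANKL score was also low (41.0).

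Of the lists of growth and gene expression, some had a few members and some had none, and no list was tested against the 8.82% of all bound genes. In the MYC network list 3 of 21 bound genes were Cad, which encodes the enzyme that starts pyrimidine synthesis, Eif4e and Mybbp1a. Cad shares its region with Atraid (chr5:31054526-31055035) and had 510 bp with RANKL, 547 bp with both agents and none with I-BET. Among 8 bound BET and elongation genes the 1 member was Supt4a, a subunit of the elongation factor DSIF (484 bp, 558 bp and 501 bp with RANKL, both agents and I-BET). Its RANKL score was 34.7, near the lowest of that list (34.3). Mediator and Integrator genes had 3 of 18 (Med7, Med22 and Med28), and Med22 shares a region with the ribosomal protein gene Rpl7a that measured 983 bp with RANKL and 943 bp with both agents, with BRD2 called in untreated and RANKL cells. Of 35 bound cytosolic ribosomal protein genes 1 was a member, Rpl7a, and of 27 bound mitochondrial ones 5 were, Mrpl36, Mrpl54, Mrps6, Mrps9 and Mrps14, beside the 8.82% of all bound genes; the difference between these lists was not tested. At Mrps9 the widths were 462 bp with RANKL and 501 bp with both agents, at Mrps14 397 bp and 320 bp, and at Mrpl36 450 bp and 518 bp. None of 44 bound histone genes, none of 29 chromatin modifier genes and none of 9 RNA polymerase genes was a member, beside the 8.82% of all bound genes. BRD3 was called in untreated cells at 45, 33 and 9 genes of these lists, and the rule bars regions shared with untreated cells. These counts were not tested. Nucleolar genes had 2 of 26, Imp3 and Mphosph10.

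The other lists described here had between 1 and 5 members each. These counts are small and stand beside the 8.82% of all bound genes, and no list was tested against that share. RNA helicases had 3 of 13 (Ddx39a, Ddx54 and Dhx9), and at Ddx54, which shares its region with Rita1, the widths were 847 bp with RANKL, 781 bp with both agents and 987 bp with I-BET. Chaperones had 4 of 27. These were Hspa9, with 1430 bp, 1118 bp and 915 bp in the same order, Hspa4 with 890 bp, 515 bp and 725 bp, Chordc1 with 731 bp, 683 bp and 779 bp, and the endosomal co-chaperone gene Dnajc13 with 395 bp and 444 bp and no I-BET call. The proton pump genes Atp6v1a and Atp6v1f were the 2 members of 13 bound lysosome and V-ATPase genes; Atp6v1a, beside Naa50, had 552 bp with RANKL and 1614 bp with both agents, and Atp6v1f had 628 bp and 597 bp. Respiratory chain genes had 3 of 31 (Ndufa9, Ndufb7 and Ndufs8), translation factors 3 of 24 (Eef1d, Eef2 and Eif4e) and aminoacyl-tRNA synthetases 2 of 17 (Lars2 and Vars2). The cell cycle list had 2 of 14 (Aurka and Ccne2), splicing 2 of 32 (Prpf4b and Prpf6), Rab and Arf trafficking 3 of 41 (Arf1, Rab33b and Rab35), zinc finger genes 5 of 65 (Zfp78, Zfp141, Zfp146, Zfp329 and Zfp770) and the proteasome 1 of 11 (Psmg4, an assembly chaperone). The RANKL region counted for the elongation factor gene Eef2 lay outside that gene, beyond its higher-coordinate end. The nearest start site was that of the kinase gene Dapk3, so the region is not one at the start of Eef2. The width there was 727 bp with RANKL and 1030 bp with both agents.

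Of the regions with BRD2 called under RANKL and not in untreated cells, 9 of the 10 with the highest BRD3 scores lay at or in coding genes. Between genes lay 18.5% of all 341 regions and 18.6% of all BRD3 RANKL regions, so 9 of 10 is near the general share. Among the 10, Tubgcp4, a microtubule nucleation gene, and Zscan29 led (597 bp with RANKL, 520 bp with both agents and 580 bp with I-BET). The pair Maz, a zinc finger factor gene, and the kinesin gene Kif22 followed (1446 bp, 505 bp and none). Uqcc1, an assembly factor gene of respiratory complex III, had 710 bp, 506 bp and 572 bp, and Ap1ar had 531 bp, 856 bp and 733 bp. Trit1, which encodes a tRNA-modifying enzyme, had 471 bp and 487 bp without an I-BET call, and BRD2 was called there in both RANKL groups. Ndufa9 had 453 bp and 507 bp, Med28 483 bp and 515 bp, the pair Ppp2r3c and Prorp 1301 bp and 343 bp, and Zfp119b, inside the gene, 682 bp and 640 bp. One of the 10 lay far from genes, 170513 bp from Samd9l on chromosome 6, with 1110 bp and 1094 bp.

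A small number of regions lay at RNA polymerase III genes or far from any gene. A tRNA gene was overlapped by 3 of 341 (0.880%, 0.182% to 2.55%), n-TDgtc12, n-TFgaa5 and n-TSgct7, the last beside the kinetochore gene Knl1, and by 0 of 733 gained regions not kept, which allows a share of up to 0.502% (upper exact bound). Of all BRD3 RANKL regions 26 did so (0.677%), so the 3 are near that share. The RANKL widths there were 430 bp, 567 bp and 563 bp, and 502 bp, 547 bp and 619 bp with both agents. The region farthest from a coding gene was on chromosome X, 534144 bp from Pcdh11x (545 bp with RANKL and 528 bp with both agents). The next were 372288 bp from Csmd1, 281630 bp from Pex2, 281328 bp from Sema6a and 266639 bp from Cntnap2. The regions were spread out, with a median of 3083 kb between neighbours and 25 of 320 neighbouring pairs under 100 kb apart.

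Chromosome 2 carried more of these regions than any other autosome. It held 50 of its 288 BRD3 RANKL regions (17.4%, 13.2% to 22.2%), against 291 of 3552 on all others (8.19%, 7.31% to 9.14%), and chromosome 7 had the lowest share, 12 of 296 (4.05%, 2.11% to 6.97%). On chromosome 2 the share of RANKL regions absent from untreated cells was 41.7% (35.9% to 47.6%), against 26.9% (25.4% to 28.3%) elsewhere. The next highest autosomes were 3 (37.1%) and 16 (35.6%). The share of gained regions kept was 41.7% (32.7% to 51.0%) against 30.5% (27.6% to 33.5%), intervals that overlap. That share was not particular to chromosome 2, with 44.4% on chromosome 14 and 41.5% on chromosome 13. Regions of untreated cells without a RANKL overlap were also more frequent there, 35.6% (29.8% to 41.8%) against 23.7% (22.3% to 25.2%). The 50 regions lay at gene ends in 78.0% of cases (64.0% to 88.5%), and 36 had an I-BET region. Their median RANKL score was 52.8, against 75.7 for the others, and their median RANKL plus I-BET score 134.5 against 138. Without chromosome 2 the share at gene ends was 60.5% and the share with a BRD3 I-BET region 52.6%.

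**Figure D4:**
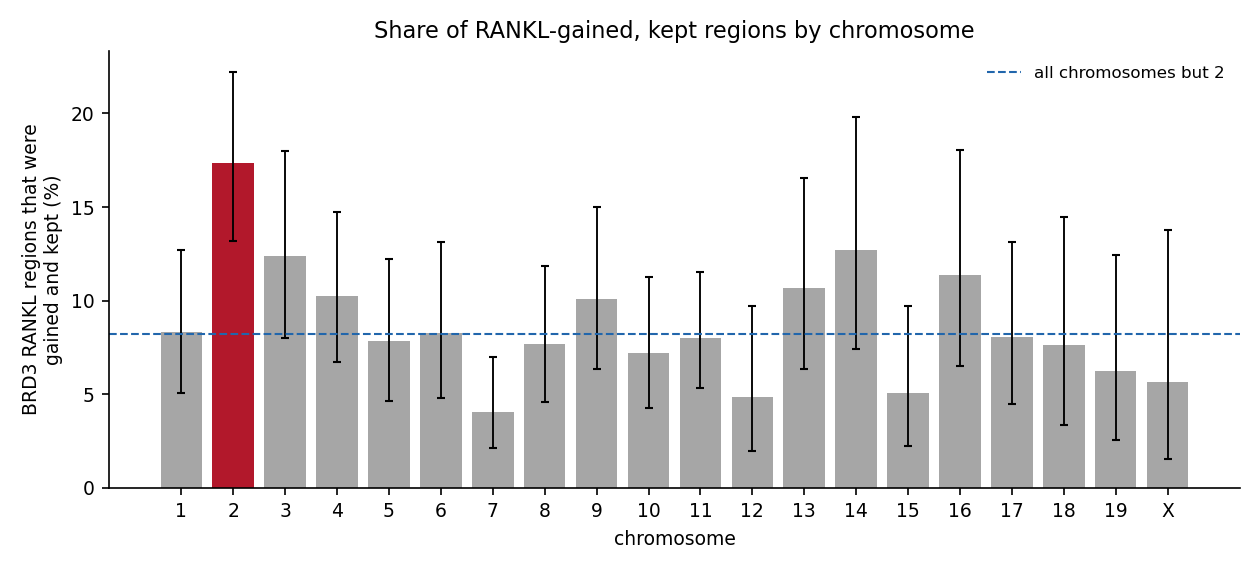
Share of the BRD3 RANKL regions of each chromosome that were absent from untreated cells and kept with I-BET, in percent, with exact 95% binomial intervals; the dashed line is the share over all chromosomes but 2, and Y, with 3 regions, is left out. Chromosome 2 stands at 17.4%, against 8.19% for all others.

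The promoters at these regions were rich in GC and CpG, as were those of all BRD3 RANKL regions. The regions held the start sites of 250 promoter windows of 300 bases (250 before and 50 after the start) of 228 genes. Their median GC content was 63.0% and the ratio of observed to expected CpG 0.882, against 63.7% and 0.873 for the windows at all BRD3 RANKL regions and 52.7% and 0.383 for the 32817 distinct windows of the RefSeq table. The GC box was present in 179 (71.6%, 65.6% to 77.1%), against 57.7% (51.6% to 63.7%) at gained regions not kept, 72.2% at kept regions shared with untreated cells, 69.7% at all BRD3 RANKL regions and 35.6% of the whole table. NRF1, the motif of a regulator of nuclear genes for mitochondria, was in 40 (16.0%, 11.7% to 21.1%), against 8.82% (5.74% to 12.8%), 23.6% (21.8% to 25.6%), 20.2% and 2.71%. The ETS motif, seen at Chordc1, Mphosph10 and Ndufb7 above, was in 63 (25.2%, 19.9% to 31.1%), against 25.7%, 21.0%, 21.9% and 8.86%. The E-box, seen at Btbd8, was in 30 (12%), with 10.7%, 11.8%, 11.7% and 7.15% in the same order.

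Motifs of factors that act downstream of RANKL or mark macrophages were in few of these windows, as in those of all BRD3 RANKL regions. The AP-1 motif (TGANTCA) was in 13 of 250 (5.20%, 2.80% to 8.72%), against 5.88% at gained regions not kept, 2.67% at kept regions shared with untreated cells, 3.47% at all BRD3 RANKL regions and 7.81% of the table. The NF-kB motif (GGANTTTCC) was in 2 (0.800%), against 0.651% at all BRD3 RANKL regions and 1.26% of the table, and the PU.1 core (GAGGAAGT) in 4 (1.60%), against 2.53% and 3.203%. CCAAT, as in Rfwd3 and Snap23, was in 35.6%, against 33.8% at all BRD3 RANKL regions and 37.4% of the table. In the same order, the TATA motif (TATAAA) was in 6.80%, against 6.12% and 13.6%, and the YY1 motif (AAGATGG) in 10.4%, against 8.90% and 6.34%. The C/EBP motif was in 7.60%, against 7.82% and 10.8%, and the CRE motif (TGACGTCA) in 2.80%, against 3.58% and 1.79%. All 12 motifs were searched on both strands, and matches may overlap. No match says only that these letters are not in the window.

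**Figure D5:**
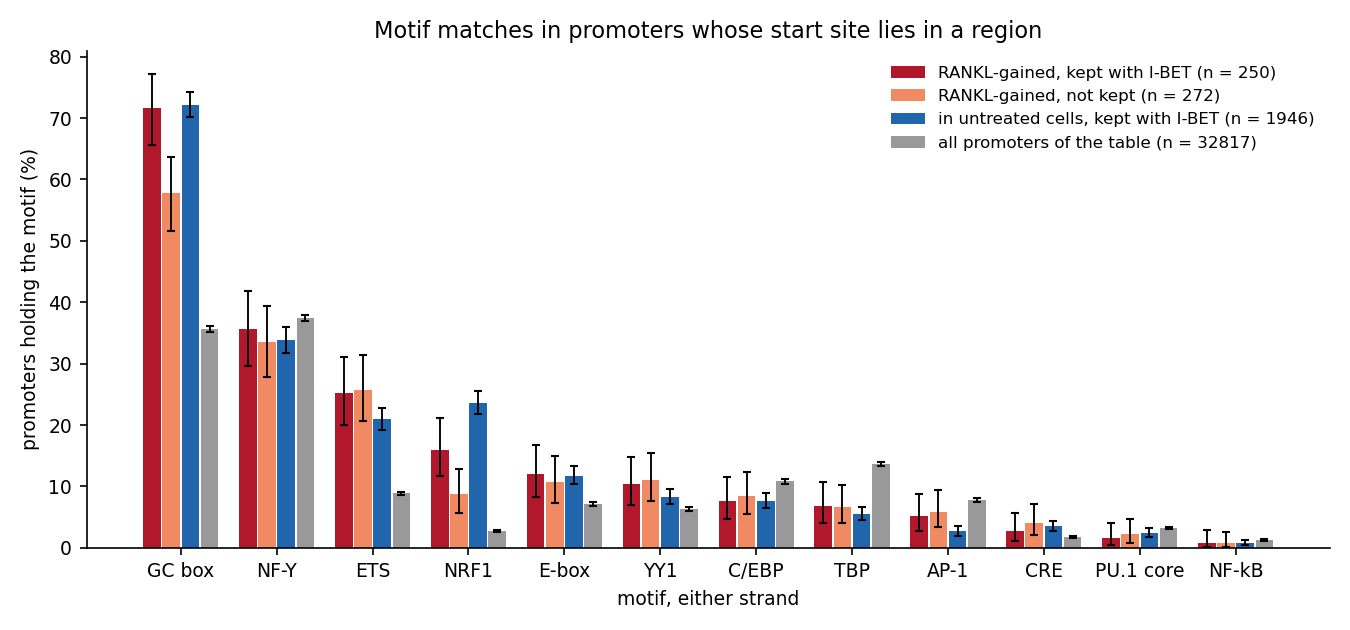
Percentage of promoter windows that hold each motif on either strand, for windows whose start site lies in gained and kept, gained and not kept, or shared and kept BRD3 RANKL regions, and for the whole RefSeq promoter table; NF-Y stands for CCAAT and TBP for TATAAA, and error bars are exact 95% binomial intervals. Gained and kept regions carry the GC box in 71.6% and NRF1 in 16.0% of windows, against 35.6% and 2.71% of the table. At kept regions shared with untreated cells the shares are 72.2% and 23.6%.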

How the data were processed

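BRD2 and BRD3 ChIP-seq regions of RAW264.7 cells were compared over 8 deposited lists, 1 library each; the 4 input libraries were not used here. The submitters' processing notes name MACS2 2.1.1.20160309, Bowtie2 2.3.4.1, FastQC and mm10/GRCm38; settings are not given in the sources used here. Per the peak names in the deposited lists, almost all regions merge 3 peaks, 1 per numbered set, with the numbers unexplained. The authors' score of a region was used only to describe and rank regions within a list. Overlaps of at least 1 bp, checked on simulated intervals and against bedtools 2.31.1, and exact (Clopper-Pearson) 95% intervals were computed with Python 3.11.15, pandas 2.3.3 and scipy 1.17.1. Gene positions and promoters came from RefSeq tables of GRCm38.p6, which give no exons; promoters of chromosome 18 (8 regions) were not used.

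The regions, the gene lists and the rules were chosen with earlier results of these data known. Named were the 10 highest-scoring and 10 widest regions, those at genes of 8 lists tied to treatment or cell type, up to 4 by score of each other list, up to 10 with BRD2 under RANKL and not in untreated cells, the 10 highest without a BRD3 I-BET region, those nearest the borders of the rule and the 5 farthest from genes. The printed promoters, the regions in all 4 BRD2 lists, those at tRNA genes, chromosomes 2 and 7 and any further list members were chosen after their values were seen. Alternatives changed the overlap, the list length, the joined peaks and the window. The members of 1 gene list are not reported here.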

Additional observations from a re-analysis of the deposited data

How the results depend on the processing

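Recomputing 8 quantities under the alternatives gave 51 values. Of these, 39 stayed within the 95% interval of the reported value, or within 1.5 times a reported count, and 12 did not. An overlap of at least 50% of the shorter region, a gap of up to 500 bp, only regions joining 3 peaks, and leaving out chromosome 2 (added after seeing the data) moved none of the quantities past these limits. With the top 50% of each list by score, the share of gained regions kept was 27.6%, the share with a BRD3 I-BET region 43.7%, with BRD2 under RANKL 7.58%, at gene ends 73.6%, the median width 644 bp and the median width ratio 0.934. With BRD3 lists of equal length by score, the share kept was 39.7%, with an I-BET region 71.9%, at gene ends 72.6%, the median width 624 bp and the ratio 0.930. These lists hold fewer regions, and 56 of 277 and 106 of 405 were in common with the 341. The rest overlap an untreated region that the cut removed, so by the full lists they are shared with untreated cells. A window of 5 kb put 71.3% at gene ends, by its construction. No paired analysis was possible because each group has 1 library and no result comes from a test. The depth of the libraries is unknown, so a missing call does not show that the protein was absent.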
